A study of Mus musculus with 29 samples.

Results

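The genes described are 9 of hepatic insulin signalling, out of 12992 genes counted in mouse liver RNA. Insr, Irs1, Irs2, Pik3r1, Akt2 and Foxo1 carry the insulin signal or receive it, and Igfbp1, Pck1 and G6pc are genes that FOXO1 transcribes when the signal is low. Their rows were taken by gene symbol, and the set was chosen with earlier results of these data known. Each symbol matched 1 row of the count table, and all 9 passed the filter on low counts in every comparison. Livers came from 29 male C57BL/6J mice, aged 13 to 14 weeks, that were fasted overnight and killed after 4 h of refeeding. The whole-body cohort was Chow-fed and held 5 Maf1-/- mice, which lack Maf1 in all cells, and 7 Ctrl mice. The Chow-fed hepatocyte-specific cohort held 4 Maf1hep-/- mice, in which an Alb-Cre transgene had deleted a floxed Maf1 gene in hepatocytes, and 4 Ctrl mice with the floxed gene and no Cre. The HF-fed hepatocyte-specific cohort held 4 Maf1hep-/- and 5 Ctrl mice of the same alleles, kept from 4 to 5 weeks of age on a diet with 60% of its calories from fat. Cells other than hepatocytes keep Maf1 in the Maf1hep-/- liver. MAF1 represses RNA polymerase III, and the comparisons asked how its loss and the diet were accompanied by changes in these 9 RNAs.

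Insulin binds its receptor, encoded by Insr, which phosphorylates the adaptors IRS1 and IRS2. These recruit phosphatidylinositol 3-kinase through the regulatory subunit encoded by Pik3r1, and the lipid it makes activates AKT2, the main AKT kinase of liver. AKT phosphorylates FOXO1 and keeps it out of the nucleus, so that in the fed liver transcription of Igfbp1, Pck1, G6pc and Irs2 declines. In the fasted liver FOXO1 acts on these genes together with glucagon, through cAMP, and with glucocorticoids. Most steps of the cascade are changes in phosphorylation, which RNA counts do not measure.

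The 4 genes of the set known as direct FOXO1 targets are shown by the 250 bases before their transcription start, taken from RefSeq (GRCm38.p6), because their levels varied most between mice. Promoter windows were found for 8 of the 9 genes. The search covered both strands for the forkhead words TGTTTAC and TATTTAC, the insulin response words TGTTTTG and TATTTTG, the cAMP response half-site TGACG and the TATA word TATAAA. Capitals mark every forkhead, insulin response and cAMP half-site match, and a match describes letters only.
Igfbp1 (chr11:7197537-7197786, + strand): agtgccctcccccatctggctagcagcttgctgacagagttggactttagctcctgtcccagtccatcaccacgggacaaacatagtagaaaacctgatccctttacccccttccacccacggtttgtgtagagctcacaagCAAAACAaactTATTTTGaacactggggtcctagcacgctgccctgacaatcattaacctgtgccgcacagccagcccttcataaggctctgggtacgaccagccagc
G6pc (chr11:101367466-101367715, + strand): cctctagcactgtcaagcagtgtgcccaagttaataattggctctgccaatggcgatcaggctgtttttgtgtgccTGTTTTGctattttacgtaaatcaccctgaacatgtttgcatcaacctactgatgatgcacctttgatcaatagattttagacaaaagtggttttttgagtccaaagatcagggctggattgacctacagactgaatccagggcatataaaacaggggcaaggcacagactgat
Pck1 (chr2:173152823-173153072, + strand): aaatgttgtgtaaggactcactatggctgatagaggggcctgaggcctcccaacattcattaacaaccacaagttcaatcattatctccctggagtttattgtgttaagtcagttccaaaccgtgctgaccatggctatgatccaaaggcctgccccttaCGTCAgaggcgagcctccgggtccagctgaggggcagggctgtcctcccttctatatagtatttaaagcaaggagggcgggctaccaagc
Irs2 (chr8:11008930-11009179, - strand): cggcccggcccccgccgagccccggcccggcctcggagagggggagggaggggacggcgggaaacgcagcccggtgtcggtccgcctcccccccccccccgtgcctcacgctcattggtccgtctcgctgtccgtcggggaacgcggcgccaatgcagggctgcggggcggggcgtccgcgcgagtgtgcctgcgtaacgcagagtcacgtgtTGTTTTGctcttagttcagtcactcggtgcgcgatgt
Igfbp1 held 2 insulin response words close together, TGTTTTG on the opposite strand at -108 to -102 and TATTTTG on its own strand at -97 to -91. G6pc held TGTTTTG at -174 to -168 and a TATA word at -29 to -24, and Irs2 held TGTTTTG at -37 to -31. Pck1 held the cAMP half-site at -90 to -86 on the opposite strand and neither of the forkhead or insulin response words. Among 32851 promoter windows of 250 bases, TGTTTTG occurred in 5.56%, TATTTTG in 3.95%, TGACG in 17.8%, TATAAA in 12.4%, TGTTTAC in 3.17% and TATTTAC in 2.73%. Outside these 4 genes, Irs1 held TGTTTTG at -111 to -105 and at -32 to -26. A window of Pik3r1 held TATTTTG at -151 to -145 and a TATA word on the opposite strand at -117 to -112. In Akt2, 1 of the 4 windows held the forkhead word TATTTAC on the opposite strand at -202 to -196. The cAMP half-site was not particular to Pck1. It also lay in Irs1 at -118 to -114, in Pik3r1 at -35 to -31 and in windows of Akt2 at -44 to -40 and at -66 to -62. Another window of Pik3r1 and that of Foxo1 held none of the words.

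Libraries held 43564164 to 75682301 counts per mouse in the Chow-fed cohorts and 25544816 to 32319706 in the HF-fed cohort, and the lowest count of any of the 9 genes in a mouse was 78, for Igfbp1. Within each cohort the Maf1 RNA of knockout and Ctrl livers did not overlap, with a log2(FC) of -4.47 in the whole-body, -2.33 in the Chow-fed hepatocyte-specific and -3.40 in the HF-fed hepatocyte-specific cohort. Hepatocyte markers were abundant in every liver, with all 12 measured and none at 0. In the whole-body cohort 1 mouse of each genotype lay among the mice of the other on the first principal component, which held 51.4% of the variance. Ctrl mouse 2 lay at 50.9, while the other Ctrl mice lay between -37.1 and -13.7. Maf1-/- mouse 2 lay at -17.4, while the other Maf1-/- mice lay between 17.4 and 53.2. The HF-fed cohort was sequenced apart from the others, at 150 cycles on 2 lanes, and all its counts were whole numbers, against 69.8% to 74.8% of those of a Chow-fed library. Diet, cohort, sequencing and counting therefore cannot be told apart. Levels are given as CPM, the count relative to the size of its library with TMM scaling over all 29 mice together, and folds come from fits that scale the mice of the comparison. In whole liver, fewer cells of a type and less RNA per cell cannot be told apart.

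Compared per kilobase of exon in Chow-fed hepatocyte-specific Ctrl livers, Pck1, the enzyme that commits oxaloacetate to gluconeogenesis, was the most abundant of the 9 RNAs at 244 ± 168 CPM per kb (SD, n = 4). G6pc, the catalytic subunit that releases free glucose from glucose 6-phosphate, followed at 41.5 ± 17.2 CPM per kb (SD, n = 4). Pik3r1 at 13.8 ± 1.29, Akt2 at 11.3 ± 0.682, Igfbp1 at 11.2 ± 12.0 and Insr at 10.4 ± 0.827 CPM per kb (SD, n = 4) came next, and Igfbp1 did not differ from its neighbours in this order beyond its own spread. Irs1 was at 4.05 ± 0.855, Irs2 at 1.53 ± 0.329 and Foxo1 at 1.33 ± 0.225 CPM per kb (SD, n = 4), so that the adaptors and the transcription factor were the least abundant, and Irs2 and Foxo1 lay within their spread of each other.

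**Figure D1:**
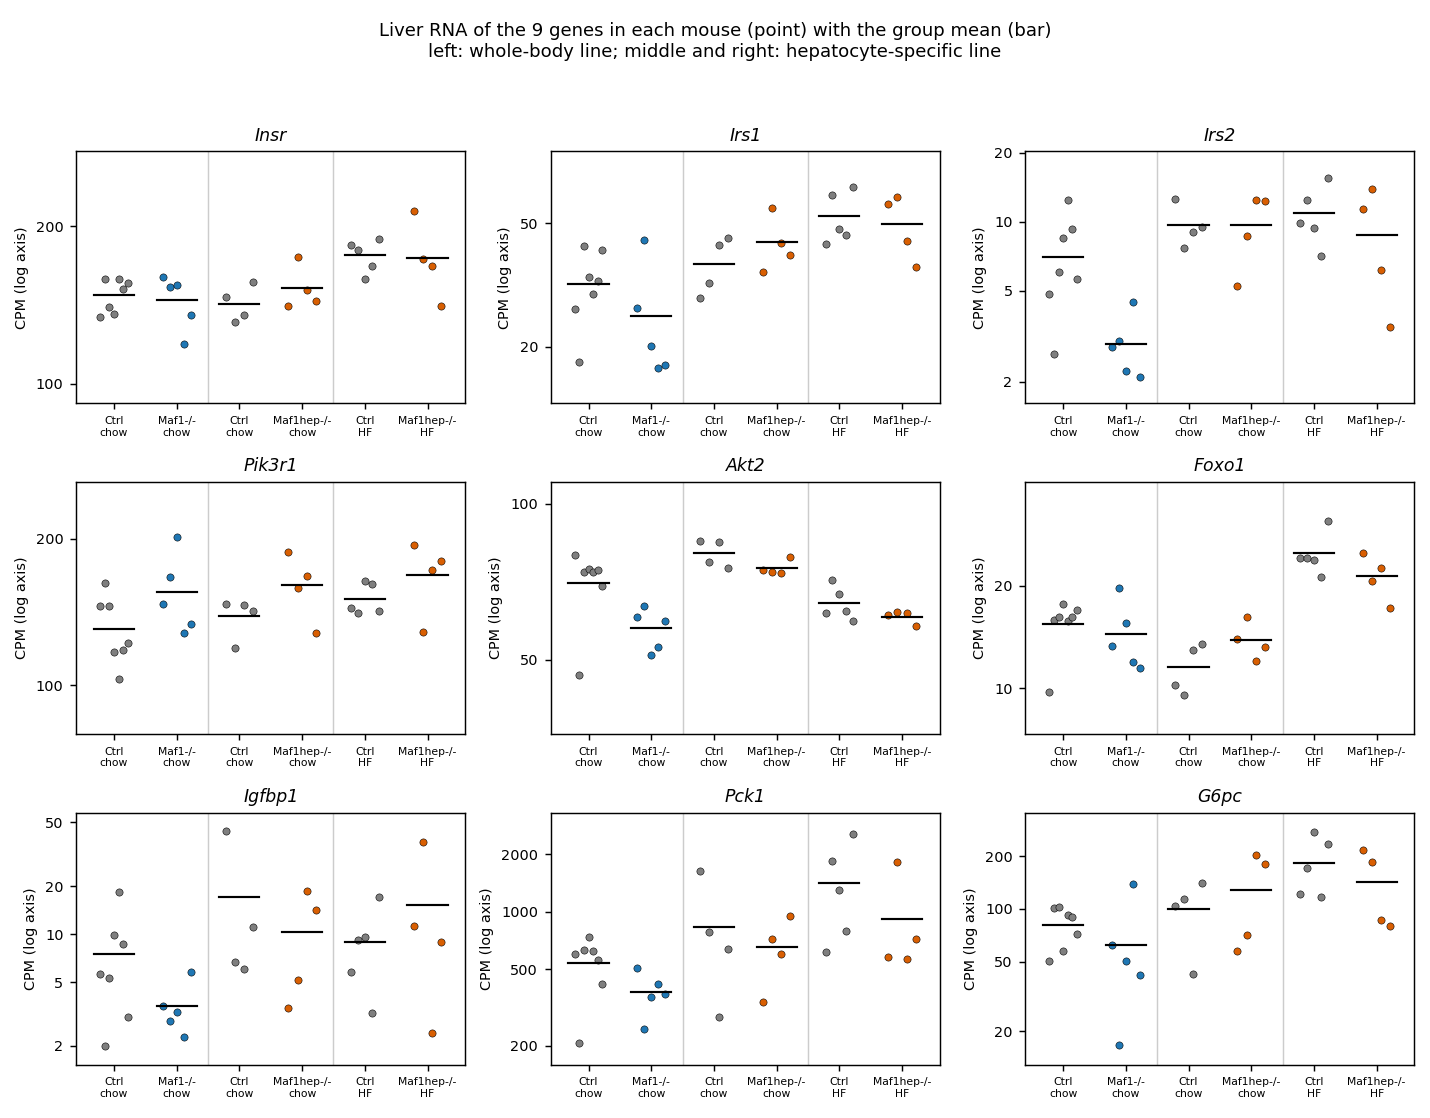
Each panel shows 1 gene, with CPM on a log axis and the 6 groups from left to right; points are single mice and bars group means. Foxo1 lies between 17.2 and 31.1 CPM in HF-fed mice of the hepatocyte-specific line and between 9.52 and 16.1 CPM in Chow-fed mice of that line, and Igfbp1 spreads from 1.98 to 44.3 CPM over all mice.

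The first comparison asked whether loss of Maf1 in the whole animal was accompanied by other levels of these RNAs in Chow-fed mice. None of the 9 passed an adjusted p of 0.05 in edgeR's quasi-likelihood test over all genes, where 0.0156% of 12796 genes did (2 genes), while DESeq2 called 314 genes and 1 of the 9, Irs2 (adjusted p = 0.0209). In the same test 3 of the 9, Irs2, Akt2 and Igfbp1, had an unadjusted p under 0.05, all lower in Maf1-/- mice, where 26.3% of all genes had one. The median log2(FC) of the 9 genes was -0.32, with 8 lower and 1 higher, beside a median of 0.00 over all genes tested. For none of the 9 did the groups stand fully apart, as they did for 0.485% of all genes.

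Irs2, the adaptor whose transcription rises with fasting, had the largest difference. Its levels in the 5 Maf1-/- mice were 2.83, 3.02, 2.23, 4.46 and 2.09 CPM, and the 7 Ctrl mice ranged from 2.64 to 12.4 CPM with a median of 6.01. All Maf1-/- values lay below those of 6 Ctrl mice, and only Ctrl mouse 2, at 2.64 CPM, lay among them. The log2(FC) was -1.22 (SE 0.316, 95% interval -1.90 to -0.54, edgeR p = 0.00171, adjusted p = 0.152), and an exact permutation test of the CPM over 792 splits gave p = 0.0189 (two-sided). The exact permutation tests here and below used CPM scaled within the cohort, and their p values are unadjusted. Akt2, the kinase that phosphorylates FOXO1, was at 60.5, 63.6, 51.1, 53.0 and 59.4 CPM in Maf1-/- mice and from 46.8 to 79.6 CPM with a median of 73.9 in Ctrl. Here too Ctrl mouse 2 was the lowest of the Ctrl mice and the only one to overlap with Maf1-/- mice. Its log2(FC) was -0.26 (SE 0.112, 95% interval -0.50 to -0.02, edgeR adjusted p = 0.173, exact permutation p = 0.0492).

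Igfbp1 encodes a secreted binding protein for insulin-like growth factors and is one of the RNAs most quickly lowered by insulin. It was at 3.56, 2.85, 3.26, 2.26 and 5.81 CPM in Maf1-/- mice, and between 1.98 and 18.3 CPM with a median of 5.66 in Ctrl, so that the groups overlapped over most of the Maf1-/- range. The log2(FC) was -1.04 (SE 0.446, 95% interval -1.999 to -0.09, edgeR adjusted p = 0.173, exact permutation p = 0.146). Pck1 was at 508, 243, 357, 420 and 373 CPM in Maf1-/- mice and from 207 to 738 CPM with a median of 603 in Ctrl, with a log2(FC) of -0.46 (SE 0.256, 95% interval -1.01 to 0.08). For G6pc the log2(FC) was -0.35 (SE 0.381), with Maf1-/- mice spread from 16.7 to 139 CPM around Ctrl mice at 50.1 to 103 CPM, and it was -0.10 without Maf1-/- mouse 2 and -0.89 without Maf1-/- mouse 4. Irs1, the other adaptor, had a log2(FC) of -0.32 (SE 0.240), and of -0.60 without Maf1-/- mouse 2. Pik3r1 was the only gene of the 9 with a higher mean in Maf1-/- mice, at a log2(FC) of 0.28 (SE 0.149, 95% interval -0.04 to 0.60). Insr and Foxo1 had log2(FC) values of -0.01 (SE 0.0974, 95% interval -0.22 to 0.20) and -0.08 (SE 0.157, 95% interval -0.41 to 0.26), and the value for Insr turned to 0.01 with DESeq2's scaling.

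The number of calls in this cohort depended on the mice kept and on the model. Without Maf1-/- mouse 2 edgeR called 2 genes, 0.0157% of 12727, and none of the 9. Without Ctrl mouse 2 it called 4526 genes, 35.4% of 12792, and 4 of the 9. These were Irs2 at a log2(FC) of -1.36 (adjusted p = 0.00474), Akt2 at -0.33 (adjusted p = 0.00832), Pck1 at -0.60 (adjusted p = 0.0241) and Igfbp1 at -1.21 (adjusted p = 0.0310). The number of RUVr factors the study used is not given in the sources used here, and limma-voom called 0, 3 and 5 of the 9 with 0, 1 and 3 such factors, while calling 3, 4299 and 6130 genes in all. Those totals were 0.0234%, 33.6% and 47.9% of 12796 genes, and the calls do not set the 9 apart from other genes. Summed hepatocyte markers spanned 96617 to 128034 CPM in Ctrl and 105008 to 135640.2 CPM in Maf1-/- mice, and summed stellate cell markers 515 to 716 and 605 to 954 CPM, and their part in these values was not tested.

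The Chow-fed hepatocyte-specific cohort asked the same of Maf1 loss in hepatocytes alone. With edgeR none of the 9 genes was called and none had an unadjusted p under 0.05, against 0.0159% and 2.39% of the 12570 genes tested, and DESeq2 and limma-voom with 0, 1 or 3 RUVr factors called none of the 9. No gene of the 9 had groups that stood apart, as 1.45% of all genes had. The log2(FC) values were small for Irs2 at -0.01 (SE 0.265, 95% interval -0.60 to 0.59), Akt2 at -0.10 (SE 0.0699, 95% interval -0.25 to 0.06) and Insr at 0.10 (SE 0.0939). The value for Irs2 turned positive, to 0.06, when libraries were scaled by their totals alone. Foxo1 was at 13.97, 16.1, 12.0 and 13.2 CPM in Maf1hep-/- mice and at 10.2, 9.52, 12.96 and 13.4 CPM in Ctrl. The groups overlapped, and the log2(FC) was 0.26 (SE 0.138, edgeR adjusted p = 0.997, exact permutation p = 0.171). Pik3r1 at 0.21 (SE 0.120), Irs1 at 0.23 (SE 0.178) and G6pc at 0.35 (SE 0.456) had higher means in Maf1hep-/- mice and did not pass the test.

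In this cohort 1 Ctrl mouse set the direction for Igfbp1 and Pck1. Igfbp1 was at 44.3, 6.73, 6.06 and 11.05 CPM in the 4 Ctrl mice and at 3.45, 5.15, 18.7 and 14.2 CPM in Maf1hep-/- mice. Pck1 was at 1641, 783, 283 and 636 CPM in Ctrl and at 340, 719, 602 and 954 CPM in Maf1hep-/- mice. Ctrl mouse 1 was the highest of the 8 for both genes. The log2(FC) was -0.73 (SE 0.718) for Igfbp1 and -0.36 (SE 0.475) for Pck1 with all mice, and 0.37 and 0.20 without Ctrl mouse 1.

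In the HF-fed hepatocyte-specific cohort none of the 9 genes was called by edgeR and none had an unadjusted p under 0.05, where 0.0162% and 6.04% of 12378 genes did, and DESeq2 and the limma-voom fits called none of the 9. The groups overlapped for all 9 genes, while they stood apart for 1.79% of all genes. Foxo1 was at 24.99, 20.6, 22.6 and 17.2 CPM in Maf1hep-/- mice and at 24.2, 24.2, 23.9, 21.2 and 31.1 CPM in Ctrl, with a log2(FC) of -0.23 (SE 0.131, 95% interval -0.52 to 0.06, edgeR adjusted p = 0.859). Igfbp1 was at 11.2, 38.0, 2.41 and 8.88 CPM in Maf1hep-/- mice and at 5.78, 9.21, 9.56, 3.18 and 17.1 CPM in Ctrl. Its log2(FC) was 0.73 (SE 0.635), and without Maf1hep-/- mouse 2, the highest, it was -0.26. Pck1 was at 579, 1822, 564 and 720 CPM in Maf1hep-/- mice, with mouse 2 again the highest, and at 617, 1851, 1301, 796 and 2537 CPM in Ctrl. Its log2(FC) was -0.64 (SE 0.451, 95% interval -1.63 to 0.35), and it was -1.19 without Maf1hep-/- mouse 2 and -0.33 without Ctrl mouse 5. Values for the other genes were -0.03 (SE 0.121) for Insr, -0.10 (SE 0.170) for Irs1, -0.33 (SE 0.352) for Irs2 (-0.64 without Maf1hep-/- mouse 2 and -0.07 without mouse 4), 0.16 (SE 0.130) for Pik3r1, -0.10 (SE 0.0812) for Akt2 and -0.38 (SE 0.345) for G6pc. Summed hepatocyte markers did not overlap between the genotypes of this cohort, at 96195 to 105088 CPM in Maf1hep-/- and 76497 to 90052 CPM in Ctrl mice. Single hepatocyte markers went both ways, with 9 of the 12 higher and 3 lower in Maf1hep-/- mice and a median log2(FC) of 0.059. The groups stood apart for 1 of the 12, and none was called, while 3 had an unadjusted p under 0.05 in edgeR, all higher. All 5 erythroid markers had a higher mean in Maf1hep-/- mice, 3 with an unadjusted p under 0.05 in edgeR and none called, with a median log2(FC) of 1.49, and their sums overlapped, at 58.1 to 151 and 54.9 to 95.2 CPM. The part of these cells in the values of the 9 genes was not tested.

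**Figure D2:**
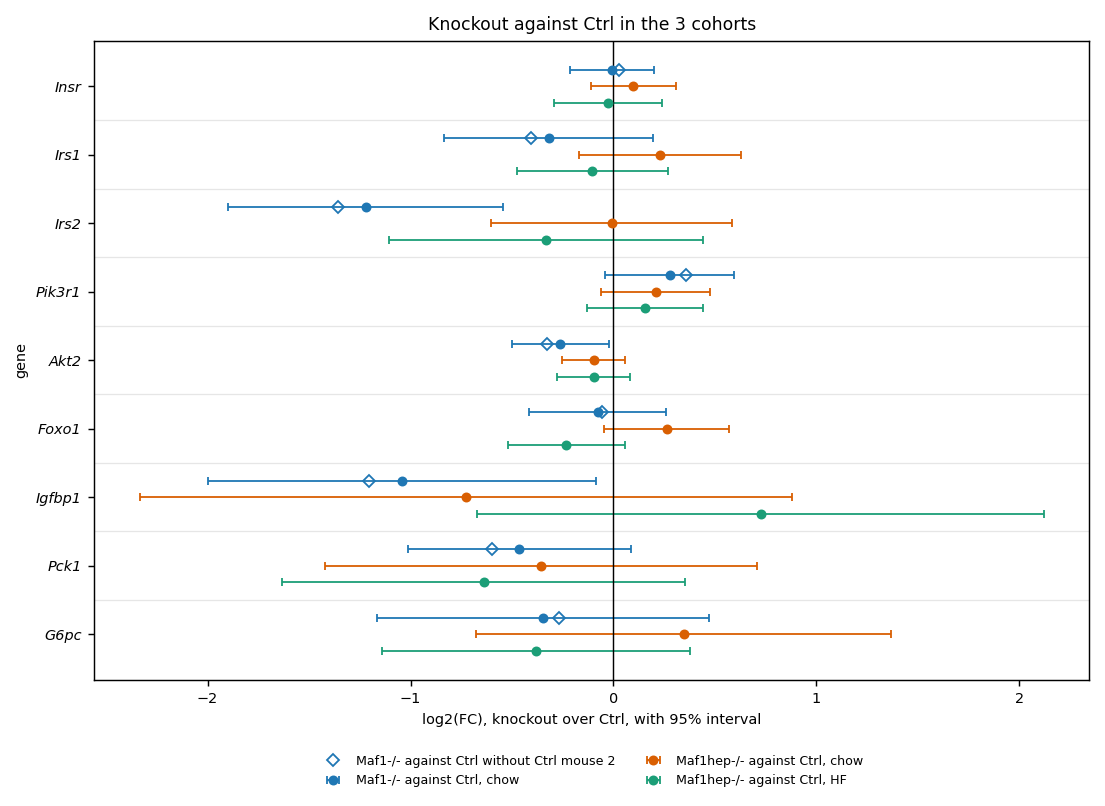
Points give log2(FC) of knockout over Ctrl with its 95% interval for the 9 genes in the 3 cohorts, and open diamonds the whole-body values without Ctrl mouse 2. Irs2 lies at -1.22 in the whole-body cohort, at -0.01 in the Chow-fed and at -0.33 in the HF-fed hepatocyte-specific cohort, and Pik3r1 lies above 0 in all 3.

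Whether the knockout effect differed between cohorts was tested by interaction terms. On chow, the effect on Irs2 in the whole-body line minus that in the hepatocyte-specific line was -1.24 on the log2 scale (SE 0.472, 95% interval -2.23 to -0.26, edgeR adjusted p = 0.398), which did not pass the test over all genes. It passed without whole-body Ctrl mouse 2, at -1.39 (adjusted p = 0.0450). No gene was called in this interaction (0.0% of 12857) with edgeR, where 1587 had an unadjusted p under 0.05, and DESeq2 called 2 genes, none of the 9. For diet, the knockout effect on Foxo1 in HF-fed minus that in Chow-fed mice was -0.49 (SE 0.199, 95% interval -0.91 to -0.07, edgeR adjusted p = 0.998), the only one of the 9 with an unadjusted p under 0.05. The interval for Igfbp1 was wide, at 1.46 with a 95% interval from -0.76 to 3.69, and the value was 0.37 without Chow-fed Ctrl mouse 1 and 0.46 without HF-fed Maf1hep-/- mouse 2. No gene passed edgeR's test of the interaction with diet (0.0% of 12970), 599 had an unadjusted p under 0.05, and DESeq2 called 11 genes, none of the 9.

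Between HF-fed and Chow-fed mice Foxo1 had the largest of the called differences among the 9 genes, in both genotypes. In Ctrl mice of the hepatocyte-specific line, Foxo1 was at 24.2, 24.2, 23.9, 21.2 and 31.1 CPM on HF and at 10.2, 9.52, 12.96 and 13.4 CPM on chow. Every HF-fed liver was above every Chow-fed one, and the means were 24.9 ± 3.68 (SD, n = 5) and 11.5 ± 1.95 CPM (SD, n = 4). The log2(FC) was 1.12 (SE 0.140, 95% interval 0.82 to 1.41, edgeR adjusted p = 3.99e-06), a fold of 2.17. Among Maf1hep-/- mice Foxo1 was at 24.99, 20.6, 22.6 and 17.2 CPM on HF and at 13.97, 16.1, 12.0 and 13.2 CPM on chow, again without overlap. The log2(FC) there was 0.63 (SE 0.145, 95% interval 0.32 to 0.93, edgeR adjusted p = 0.00199), a fold of 1.54. The call held in each of the 19 alternatives in Ctrl, at log2(FC) values from 0.69 to 1.51, and in each of the 17 in Maf1hep-/- mice, from 0.54 to 0.95. The lowest value in Ctrl, 0.69 (SE 0.143, edgeR adjusted p = 3.35e-04), was set against the Chow-fed Ctrl of the whole-body line, in which Foxo1 stood at 15.5 ± 2.61 CPM (SD, n = 7).

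These counts stand against a broad difference between the cohorts. In Ctrl, edgeR called 53.6% of 12970 genes, 25.3% higher and 28.3% lower on HF, and the groups stood apart for 42.0% of genes. Of the 9 genes 4 were called, 3 higher (Insr, Irs1 and Foxo1) and 1 lower (Akt2), and 3 stood apart (Insr, Akt2 and Foxo1), with a median log2(FC) of 0.31 for the 9 and 0.01 for all genes. For Maf1hep-/- mice 46.9% of genes were called, 21.8% higher and 25.1% lower, and 42.2% stood apart. There 2 of the 9 were called, Foxo1 higher and Akt2 lower, both apart, and the median log2(FC) was 0.19 for the 9 and 0.02 for all genes. When libraries were scaled by their totals alone, the median of all genes moved to 0.41 in Ctrl and 0.35 in Maf1hep-/- mice. The calls in Ctrl were then 7171 higher and 2003 lower, against 3279 and 3675 with TMM, and in Maf1hep-/- mice 6392 and 1926, against 2822 and 3261. Summed Kupffer cell markers, all 12 measured and none at 0, were at 365 to 525 CPM in HF-fed and 241 to 327 CPM in Chow-fed Ctrl, and summed hepatocyte markers at 76497 to 90052 and 95776 to 102275 CPM. In Maf1hep-/- mice both sums overlapped between the diets, at 331 to 658 and 260 to 367 CPM for Kupffer cell markers and 96195 to 105088 and 85903 to 106981 CPM for hepatocyte markers. Single Kupffer cell markers went both ways. On HF 6 of the 12 were called higher and 2 lower in Ctrl, and 5 higher and 1 lower in Maf1hep-/- mice. Those calls were 66.7% and 50.0% of the list, beside 53.6% and 46.9% of all genes. Of 5 erythroid markers 4 were called lower on HF in each genotype, with a median log2(FC) of -3.88 in Ctrl and -2.61 in Maf1hep-/- mice. In each genotype 1 of the 5 had a higher mean on HF, and the summed erythroid markers overlapped between the diets. These sums were 54.9 to 95.2 CPM on HF and 85.4 to 297 CPM on chow in Ctrl. In Maf1hep-/- mice they were 58.1 to 151 and 90.0 to 315 CPM. The part of these cells in the differences was not tested.

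Insr was at 184, 180, 159, 168 and 189 CPM in HF-fed Ctrl and at 146, 131, 135 and 156 CPM in Chow-fed Ctrl. The groups did not overlap, by a narrow margin, and the log2(FC) was 0.31 (SE 0.108, 95% interval 0.09 to 0.54, edgeR adjusted p = 0.0211). The call was lost without Chow-fed Ctrl mouse 2 (adjusted p = 0.0681) or mouse 3 (adjusted p = 0.0698). The log2(FC) of Insr in Maf1hep-/- mice was 0.19 (SE 0.113, edgeR adjusted p = 0.172). Irs1 was at 42.8, 61.7, 48.0, 45.9 and 65.5 CPM on HF and at 28.8, 32.1, 42.5 and 44.9 CPM on chow in Ctrl. The groups overlapped, and the log2(FC) was 0.52 (SE 0.186, 95% interval 0.13 to 0.91, edgeR adjusted p = 0.0265). This call was lost without Chow-fed Ctrl mouse 1 or 2 or without HF-fed Ctrl mouse 2 or 5, with adjusted p values of 0.0845, 0.0788, 0.0618 and 0.06997. With the replicate number as a block only Akt2 and Foxo1 were called in Ctrl, and Insr and Irs1 had edgeR adjusted p values of 0.0558 and 0.0791. This block joins same-numbered mice of the Chow-fed and HF-fed cohorts, and no label says that they belong together.

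Akt2 was at 61.4, 71.1, 67.0, 62.2 and 59.5 CPM in HF-fed Ctrl and at 84.7, 77.1, 84.3 and 75.3 CPM in Chow-fed Ctrl. The Maf1hep-/- mice had 61.0, 61.8, 61.4 and 58.0 CPM on HF and 74.4, 73.8, 73.4 and 79.0 CPM on chow. Neither pair of groups overlapped, and the spread within a group was narrow. With TMM, Akt2 was lower on HF by the same size in both, with a log2(FC) of -0.31 (SE 0.0680, edgeR adjusted p = 9.23e-04) in Ctrl and -0.31 (SE 0.0719, edgeR adjusted p = 0.00211) in Maf1hep-/- mice, but with library totals its value turned to 0.08 in Ctrl (adjusted p = 0.277) and 0.02 in Maf1hep-/- mice. The sign of the Akt2 difference therefore depended on the scaling, and that of Insr, Irs1 and Foxo1 did not, at 0.71, 0.91 and 1.51 in Ctrl with library totals beside the median of 0.41.

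**Figure D3:**
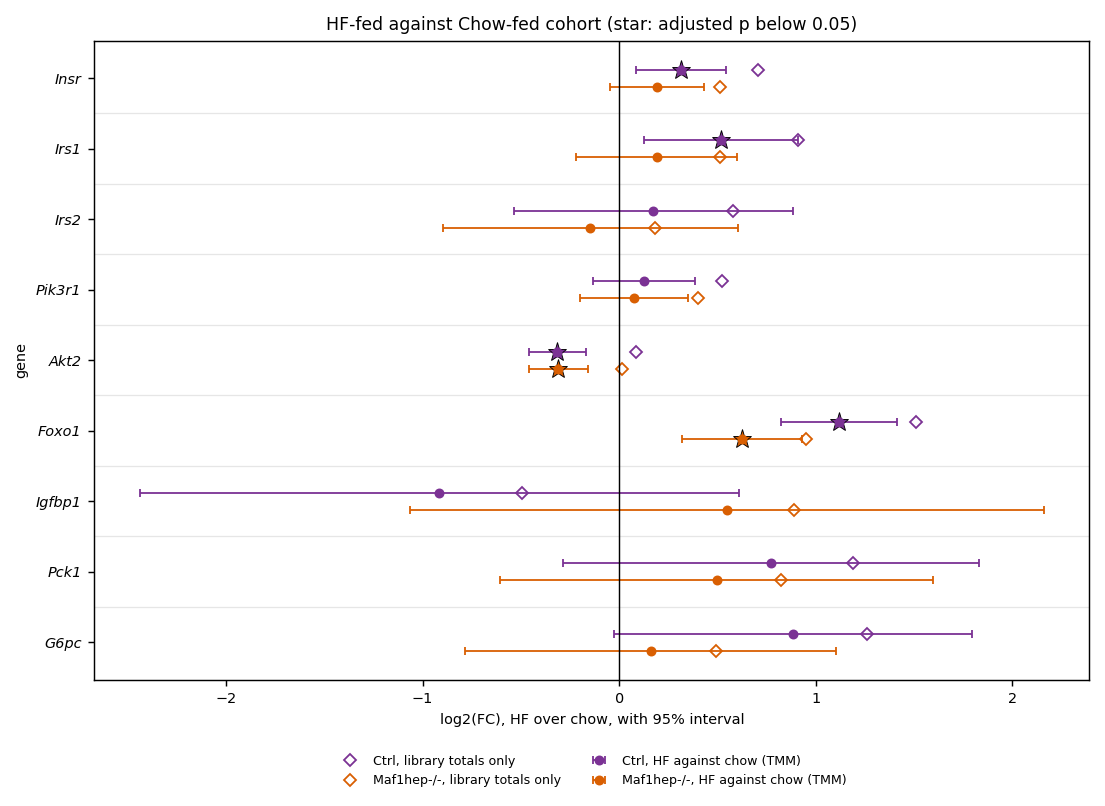
Filled symbols give log2(FC) of HF over chow with its 95% interval in Ctrl and Maf1hep-/- mice after TMM scaling, stars mark an adjusted p below 0.05, and open diamonds give the values with library totals only. Foxo1 lies above 0 in both genotypes under both scalings, at 1.12 and 0.63 with TMM, and Akt2 moves from -0.31 with TMM to 0.08 and 0.02 with library totals.

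The 3 FOXO1 targets did not pass the test between diets. In Ctrl, G6pc was at 121, 171, 274, 117 and 234 CPM on HF and at 104, 113, 42.4 and 141 CPM on chow, with a log2(FC) of 0.88 (SE 0.431, 95% interval -0.03 to 1.79, edgeR adjusted p = 0.0935). Pck1 had a log2(FC) of 0.77 (SE 0.501, edgeR adjusted p = 0.204), and without Chow-fed Ctrl mouse 1, at 1641 CPM, it was called at 1.33 (adjusted p = 0.0383). Igfbp1 had a log2(FC) of -0.92 (SE 0.723), and the same mouse, at 44.3 CPM, set its sign, which turned to 0.18 without it. Against the Ctrl of the whole-body line both Pck1 at 1.40 (edgeR adjusted p = 0.00477) and G6pc at 1.18 (edgeR adjusted p = 0.0173) were called, and Igfbp1 was at 0.26. The values in Maf1hep-/- mice were 0.50 (SE 0.522) for Pck1, 0.16 (SE 0.447) for G6pc and 0.55 (SE 0.764) for Igfbp1, and without HF-fed mouse 2 those of Pck1 and Igfbp1 were -0.07 and -0.45. Irs2 had log2(FC) values of 0.17 (SE 0.336) in Ctrl and -0.15 (SE 0.355) in Maf1hep-/- mice and Pik3r1 of 0.13 (SE 0.124) and 0.08 (SE 0.130), none of which was called, and with library totals Irs2 in Maf1hep-/- mice turned to 0.18 and Pik3r1 was called in both, at 0.52 and 0.40.

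How far 2 Chow-fed Ctrl groups differed without a change of diet or a knockout was measured between the whole-body and the hepatocyte-specific line. The 2 groups were not alike in Maf1 RNA itself. Its mean was 7.66 CPM in whole-body Ctrl and 16.4 CPM in hepatocyte-specific Ctrl, each scaled within its own cohort. None of the 9 genes was called by edgeR or DESeq2, against 10.9% of 12857 genes with edgeR. Foxo1 and Igfbp1 had an unadjusted p under 0.05 in edgeR, a share of 22.2% beside 28.5% of all genes. Foxo1 was higher in the whole-body line at a log2(FC) of 0.40 (SE 0.163, edgeR adjusted p = 0.112), with Ctrl mouse 1 of that line at 9.73 CPM and the others between 15.8 and 17.6 CPM. Without that mouse it was 0.49 (adjusted p = 0.0246). Igfbp1 was at -1.20 (SE 0.571, edgeR adjusted p = 0.171), and at -0.10 without hepatocyte-specific Ctrl mouse 1. Of the genes of 7 lists around the insulin pathway, 11 were called between these Ctrl groups, among them Cebpb at -1.13 (SE 0.328), Foxa2 at -0.74 (SE 0.168) and Pik3r2 at -0.89 (SE 0.211), which also differed between the diets. The called shares of these lists were 0.0% to 21.1%, beside 10.9% of all genes.

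Those 7 lists hold the genes around the 9, and none of them held a called gene in any of the 3 genotype comparisons with edgeR. In the whole-body cohort, where 26.3% of all genes had an unadjusted p under 0.05 (1974 lower and 1385 higher), an unadjusted p under 0.05 was found for 8 lower and 2 higher of 23 glucagon, cAMP and glucocorticoid regulators of Pck1 and G6pc, for 6 lower and 0 higher of 22 other FOXO1 targets, and for 3 lower and 1 higher of 18 negative regulators of insulin signalling. The cascade had 2 lower and 1 higher of 20, the insulin-induced lipogenic and glycolytic genes 1 and 1 of 15, gluconeogenesis and glucose output 1 lower of 19, and the IGF axis 2 lower and 1 higher of 8. The shares of the FOXO1 targets (27.3%) and of the negative regulators (22.2%) lay near that of all genes, and that of the glucagon and cAMP list was 43.5%. Median log2(FC) values were -0.22 for the glucagon and cAMP list and -0.19 for the FOXO1 targets, beside 0.00 over all genes. In the hepatocyte-specific cohorts each list had at most 2 genes in either direction with an unadjusted p under 0.05.

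Between diets the insulin-induced lipogenic and glycolytic genes had the lowest median of the 7 lists. The shares of the lists that were called were 42.1% to 80.0% in Ctrl, beside 53.6% of all genes, and 31.6% to 62.5% in Maf1hep-/- mice, beside 46.9%, and the counts describe each list without setting it apart from other genes. In Ctrl 11 of its 15 genes fell and 1 rose, with a median log2(FC) of -1.13, and in Maf1hep-/- mice 7 fell and 1 rose, with a median of -0.85. Those that fell in Ctrl included Angptl8, a feeding-induced inhibitor of lipoprotein lipase, at -2.28 (SE 0.398), Mid1ip1, an activator of acetyl-CoA carboxylase, at -2.04 (SE 0.339), Elovl6, a fatty acid elongase, at -1.13 (SE 0.193), and Acaca, acetyl-CoA carboxylase, at -0.74 (SE 0.136). Among Maf1hep-/- mice Elovl6 fell by 1.54, Acaca by 1.03, Mid1ip1 by 1.76 and Fasn, fatty acid synthase, by 1.82 on the log2 scale.

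Of the 20 genes of the cascade list 9 rose and 4 fell in Ctrl, and 6 rose and 3 fell in Maf1hep-/- mice. Cblb, a ubiquitin ligase of receptor signalling, rose by 1.57 (SE 0.218) in Ctrl and 1.34 in Maf1hep-/- mice, Rictor, the defining subunit of the complex that phosphorylates AKT, by 0.66 and 0.58, and Sos1, an exchange factor for RAS, by 0.82 in Ctrl. Pik3r2, another regulatory subunit of the kinase that Pik3r1 serves, fell by 0.84 in Ctrl and by 0.79 in Maf1hep-/- mice, and Gsk3a, a kinase that AKT inhibits, fell by 0.46 in Maf1hep-/- mice. Among 18 negative regulators 6 rose and 4 fell in Ctrl and 5 rose and 5 fell in Maf1hep-/- mice. Phlpp2, a phosphatase of AKT, rose by 0.96, Enpp1, an inhibitor of the insulin receptor, by 0.47 and Grb14, an adaptor that blocks the receptor, by 0.43 in Ctrl, while Eif4ebp1, a repressor of translation downstream of mTOR, fell by 0.72. In Maf1hep-/- mice the adaptor Sh2b3 fell by 0.58 and Eif4ebp1 by 0.54, and Enpp1 rose by 0.35.

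Of the other FOXO1 targets, 5 of 22 were called higher and 5 lower in Ctrl (45.5%) and 3 higher and 4 lower in Maf1hep-/- mice (31.8%). Sesn3, a stress-induced regulator of mTOR, rose by 0.72 and Atg14, an autophagy factor, by 0.55 in Ctrl, whereas Klf15, a transcription factor of amino acid breakdown, fell by 0.63 and Cdkn1b, a cell cycle inhibitor, by 0.49. In Maf1hep-/- mice Ppargc1a, a coactivator of FOXO1, rose by 0.79 and Txnip, an inhibitor of thioredoxin, by 0.64, and Klf15 fell by 0.76 and Cited2, a transcriptional coregulator, by 0.87.

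Of 19 other genes of gluconeogenesis and glucose output 7 fell and 1 rose in Ctrl, and 4 fell and 2 rose in Maf1hep-/- mice. Mpc1, a subunit of the mitochondrial pyruvate carrier, fell by 3.52 (SE 0.109) in Ctrl and fell by 3.09 in Maf1hep-/- mice. Gpi1, glucose phosphate isomerase, fell by 0.60 and 0.62, Gpt, alanine aminotransferase, by 0.98 in Ctrl and Slc37a4, the carrier that brings glucose 6-phosphate to G6PC, by 0.65 in Maf1hep-/- mice. Ldha, lactate dehydrogenase, rose by 0.52 in Ctrl and Pck2, the mitochondrial counterpart of Pck1, by 0.81 in Maf1hep-/- mice. Of 23 glucagon, cAMP and glucocorticoid regulators 10 fell and 5 rose in Ctrl, and 9 fell and 3 rose in Maf1hep-/- mice. Cebpb and Foxa2 encode transcription factors that bind gluconeogenic promoters. Cebpb fell by 4.72 (SE 0.297) in Ctrl and fell by 3.99 in Maf1hep-/- mice, and Foxa2 fell by 1.92 (SE 0.202) and fell by 1.73, while Pde4d, a cAMP phosphodiesterase, rose by 1.17 and 1.32 and Sik2, a kinase that restrains CREB coactivators, by 0.78 and 0.75. In the IGF axis 3 of 8 genes fell and 1 rose in Ctrl, and 3 fell and 2 rose in Maf1hep-/- mice. Igfals, which holds IGF1 in its circulating complex, fell by 1.38 and 1.37, the binding proteins Igfbp4 by 0.53 and 0.31, Igfbp7 by 0.31 in Ctrl and Igfbp2 by 0.91 in Maf1hep-/- mice, and Igf2r, a scavenger receptor for IGF2, rose by 0.33 and 0.35. All genes named from the lists passed an edgeR adjusted p of 0.05 after TMM, and their directions are relative to that scaling. With library totals the sign turned for 9 of the 71 called genes of the lists in Ctrl, Igfbp7 among those named (0.09), and for 2 of the 57 in Maf1hep-/- mice, Igfbp4 among those named (0.01). The calls were then 2 higher and 7 lower for the lipogenic and glycolytic genes in Ctrl and 1 and 6 in Maf1hep-/- mice, but 12 and 1 and 10 and 1 for the cascade, 8 and 1 and 10 and 0 for the negative regulators, and 9 and 1 and 7 and 0 for the other FOXO1 targets. For gluconeogenesis they were 4 and 2 and 4 and 1, for the glucagon and cAMP list 6 and 5 and 6 and 7, and for the IGF axis 2 and 1 in both genotypes. Differences between cohorts and between diets cannot be told apart in any of these genes.

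The 9 genes differed widely in how far mice of 1 group varied. The pooled SD of log2(CPM) within groups was 1.11 for Igfbp1, 0.75 for G6pc, 0.73 for Pck1 and 0.60 for Irs2, which stood at the percentiles 99.0, 96.9, 96.5 and 93.5 of the 12992 genes. The median SD of all genes was 0.26. Irs1 had an SD of 0.39 and stood at the percentile 77.8, Foxo1 0.26 at 50.0, Pik3r1 0.22 at 37.4, Akt2 0.15 at 14.2 and Insr 0.15 at 12.5. The RNAs of the FOXO1 targets and of Irs2 thus varied more between mice than those of the receptor, the kinase subunits and Foxo1. Within a group, the highest Igfbp1 level exceeded the lowest by 2.57 to 15.8 times, and that of Insr by 1.18 to 1.52 times.

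Some of this variation was shared. Deviations of each mouse from its group mean were correlated over the 29 mice for all 36 pairs of the 9 genes, with 100000 permutations of mice within groups (two-sided) and p adjusted over the 36 pairs, and 7 pairs passed an adjusted p of 0.05 for Pearson's r and for Spearman's rho. How often pairs of other genes pass such a test was not measured, so the 7 pairs are not set apart from other genes. Igfbp1 and Pck1 were most alike (r = 0.76, permutation p = 0.00012, adjusted p = 0.00432, rho = 0.71, permutation p = 0.00026, adjusted p = 0.00936). Without the 2 mice farthest from the median of Igfbp1, r was 0.67, and it was 0.68, 0.76 and 0.80 within the whole-body, Chow-fed and HF-fed hepatocyte-specific cohorts. Irs2 went with Igfbp1 (r = 0.69, permutation p = 0.00041, adjusted p = 0.00738, rho = 0.64, permutation p = 0.00093, adjusted p = 0.0112), with r at 0.71 without the 2 farthest mice and at 0.65, 0.87 and 0.67 in the 3 cohorts. Irs2 also went with Pck1 (r = 0.59, permutation p = 0.00114, adjusted p = 0.0137, rho = 0.55, permutation p = 0.00353, adjusted p = 0.0254), with r at 0.54 without the 2 farthest mice and at 0.65, 0.61 and 0.58 in the cohorts. In these pairs mice with more of 1 target RNA tended to have more of the other in every cohort.

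Foxo1 RNA went with the RNAs of the receptor and of an adaptor. With Irs1, r was 0.64 (permutation p = 0.00329, adjusted p = 0.0210, rho = 0.66, permutation p = 0.00082, adjusted p = 0.0112), 0.66 without the 2 farthest mice, and 0.59, 0.78 and 0.69 in the cohorts. With Insr, r was 0.59 (permutation p = 0.00155, adjusted p = 0.0139, rho = 0.62, permutation p = 0.00198, adjusted p = 0.0178) and 0.52, 0.57 and 0.79 in the cohorts, but without the 2 farthest mice r = 0.54 no longer passed (adjusted p = 0.0677). Its r with Igfbp1, Pck1 and G6pc was -0.07, -0.16 and -0.15, none past the test. Pik3r1 ran opposite to Irs2 (r = -0.60, permutation p = 0.00371, adjusted p = 0.0210, rho = -0.55, permutation p = 0.0094, adjusted p = 0.0454), with r at -0.55 without the 2 farthest mice and at -0.74, -0.37 and -0.54 in the cohorts. It also ran opposite to Pck1 (r = -0.52, permutation p = 0.00408, adjusted p = 0.0210, rho = -0.52, permutation p = 0.00543, adjusted p = 0.0326), with -0.51, -0.45 and -0.67 in the cohorts, but at -0.44 without the 2 farthest mice it no longer passed (adjusted p = 0.0726). All these correlations come from the same 29 libraries.

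**Figure D4:**
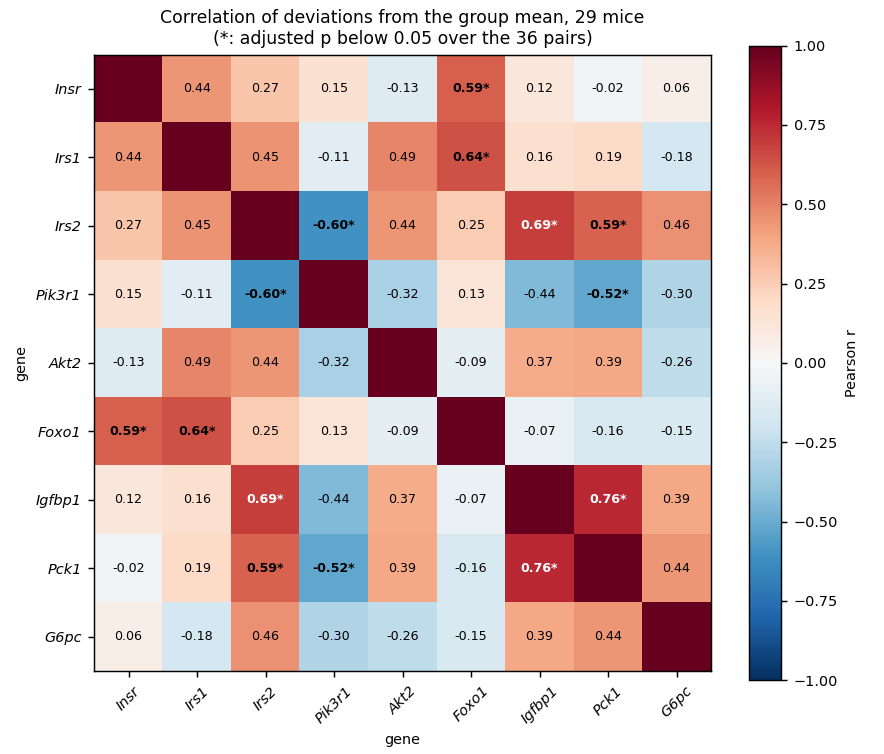
Each cell gives Pearson's r of the deviations from the group mean for 1 pair of the 9 genes over 29 mice, from blue (-1) to red (1), and asterisks mark an adjusted p below 0.05 over the 36 pairs. Irs2, Igfbp1 and Pck1 form a positive block with r from 0.59 to 0.76, and Foxo1 is at 0.64 with Irs1 and 0.59 with Insr.

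**Figure D5:**
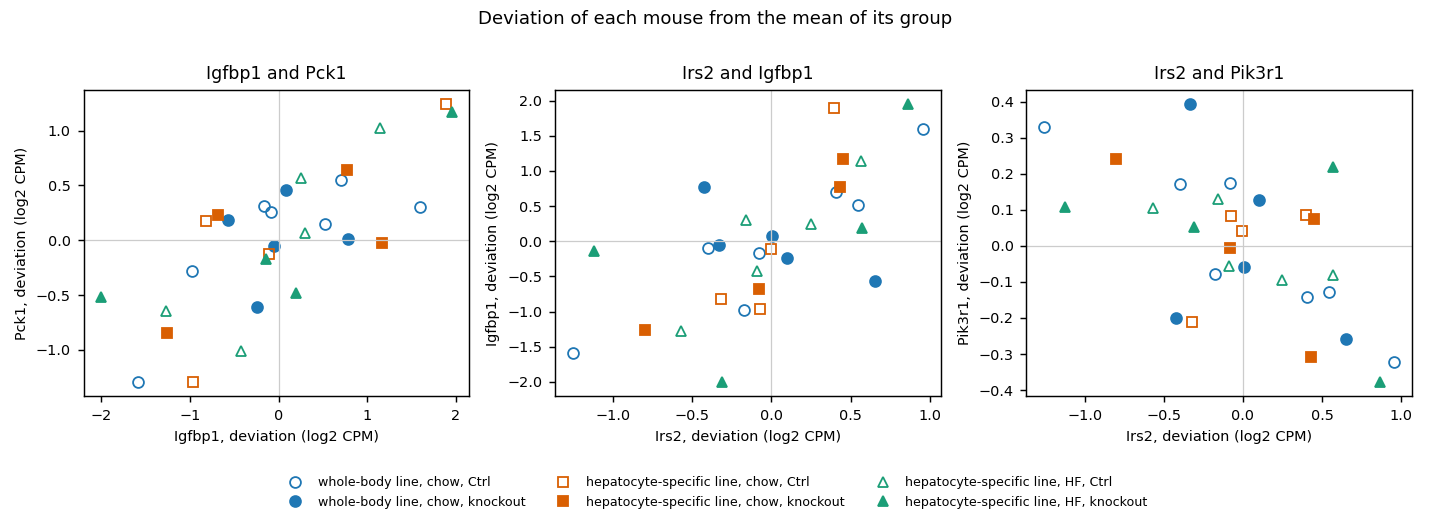
Points are mice, each placed by its deviation from its group mean in log2 CPM, for Igfbp1 against Pck1, Irs2 against Igfbp1 and Irs2 against Pik3r1, with shapes for cohorts and filled symbols for knockouts. The first 2 panels rise (r = 0.76 and 0.69) and the last falls (r = -0.60), and mice of every cohort lie along each trend.

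Among 9239 genes with a mean of at least 5 CPM, those most like Pck1 over the 29 mice were Sik1, a cAMP-induced kinase (r = 0.79), Igfbp1 (r = 0.76) and A930011G23Rik (r = 0.75). For Igfbp1 they were Pck1, Rapgef4, a cAMP-activated exchange factor (r = 0.74), and Apoa4, a lipoprotein component (r = 0.74). For G6pc they were Bbs9 (r = 0.79) and Irf2bp2 (r = 0.77), neither of them among the 9, and for Irs2 they were Cds2, an enzyme of phosphatidylinositol synthesis (r = 0.79), Acnat1 (r = 0.76) and Fam169b (r = 0.69). These values describe likeness in the same libraries and were picked as the highest of all genes, so no p is given.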

How the data were processed

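Liver RNA of 29 mice was measured by RNA-seq, with 1 library per mouse, grouped by the labels given to GEO. The authors trimmed reads with TrimGalore, aligned them to mm10 with STAR and deposited unscaled expected counts from RSEM, 1 row per gene. Depth was 25544816 to 75682301 counts per mouse, and the lowest count of any of the 9 genes was 78. Whole numbers in the HF-fed cohort are not explained in the sources used here.

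Expected counts were rounded and fitted in R 4.3.3 with edgeR 4.0.16 (quasi-likelihood, TMM), keeping genes that reached 1 CPM in any mouse of the fit. Each genotype comparison used its own cohort, the diet comparisons the 17 mice of the hepatocyte-specific line, and the comparisons between lines the 20 Chow-fed mice. P values were adjusted by Benjamini and Hochberg's method over every gene of a fit and called under 0.05. For edgeR, the SE is the size of the log2(FC) over the square root of the F statistic. The 95% intervals use the total degrees of freedom of the quasi-likelihood test, residual and prior together. Correlations and SDs used log2(CPM) with a prior count of 2. Positions and exon lengths came from GENCODE M21 and promoters from RefSeq. Python 3.11.15 did the permutations, and the fits were tested on simulated counts.

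The 9 genes, the lists and the tests were chosen with earlier results of these data known. Named from each list are up to 4 called genes per comparison by smallest adjusted p, and for Igfbp1, Pck1, G6pc and Irs2 the 3 genes most like them, and some genes that these rules name are not reported here. Alternatives were RLE scaling, no filter, DESeq2 1.42.0, limma 3.58.1 (voom) with 0, 1 or 3 RUVr factors, a block for the replicate number, 1 fit of all mice, a prior count of 0.5, exact permutation tests and leaving out each mouse. Library totals and the Ctrl of the whole-body line were added after seeing the data. Same-numbered mice of the HF-fed cohort deviated together (correlations 0.415, 0.121, 0.269 and 0.266), which pairs them by their values alone, since neither the labels nor the study say what the number marks and the study treats its data as unpaired. In the other cohorts such correlations included values below 0.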

Additional observations from a re-analysis of the deposited data

Results flagged for a closer look

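Over the 54 combinations of a gene and a group, 5 held a mouse far from the rest of its group by Dixon's ratio of the gap to the range, which chance gives in about 1 in 20 groups. In Chow-fed hepatocyte-specific Ctrl, mouse 1 had 44.3 CPM of Igfbp1 and the nearest mouse 11.05 (ratio 0.870, critical value 0.829, n = 4), and mouse 2 had 119 CPM of Pik3r1 and the nearest 142 (ratio 0.837). In whole-body Ctrl, mouse 2 had 46.8 CPM of Akt2 and the nearest mouse 69.5 (ratio 0.692, critical value 0.568, n = 7), and mouse 1 had 9.73 CPM of Foxo1 and the nearest 15.8 (ratio 0.765). In HF-fed Maf1hep-/- mice, mouse 2 had 1822 CPM of Pck1 and the nearest mouse 719.6 (ratio 0.876, critical value 0.829, n = 4).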

How the results depend on the processing

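The HF-fed libraries were the shallowest, the lowest count of any of the 9 genes was 78, and no comparison at matched depth was run. In the whole-body cohort, where 0 of the 9 were called, DESeq2 called 1 (Irs2, adjusted p = 0.0209, 314 genes in all), limma-voom with 1 RUVr factor 3, with 3 factors 5, and leaving out 1 mouse 0 to 4. For HF against chow in Ctrl, 4 were called, 2 with the replicate block, 3 in 1 fit of all mice, 5 with 1 or 3 RUVr factors or against the whole-body Ctrl, 6 with library totals, and 2 to 4 without 1 mouse. In Maf1hep-/- mice 2 were called, 3 with 3 RUVr factors, 4 with library totals, and 2 to 3 without 1 mouse. The main fits of these diet comparisons called 53.6% of all genes in Ctrl and 46.9% in Maf1hep-/- mice. With library totals more genes were called in all, and the counts describe the 9 without setting them apart from other genes. For the interaction with line 0 were called, 2 with 3 RUVr factors and 0 to 1 without 1 mouse. Between the Chow-fed Ctrl groups 0 were called, 1 with 1 RUVr factor, 3 with 3, and 0 to 1 without 1 mouse. The block changed no other call, and counts over all genes in the HF-fed genotype comparison moved from 2 to 45 with the block, 56 with DESeq2 and 175 with 3 RUVr factors. Over all genes, the whole-body count of 2 became 4299 and 6130 with 1 and 3 RUVr factors and 4526 without Ctrl mouse 2, the Chow-fed hepatocyte-specific count of 2 became 5 with 3 factors, the interaction with line went from 0 to 1802 and 3146, and to 1049 without whole-body Ctrl mouse 2, the interaction with diet from 0 to 11 with DESeq2 and 9 with 3 factors, and the count between Ctrl groups from 1397 to 3337 and 4767, 245 with the block, and 653 to 2226 without 1 mouse.

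Several values changed sign. Insr in the whole-body cohort was 0.0057 with RLE scaling, 0.0058 with DESeq2, 0.0052 with the block, and -0.050 to 0.055 without 1 mouse. Irs2 in the Chow-fed hepatocyte-specific cohort was 0.0054 with 3 RUVr factors, 0.058 with library totals and -0.15 to 0.20 without 1 mouse, where Igfbp1 ranged from -1.18 to 0.37 and Pck1 from -0.65 to 0.20. In the HF-fed cohort Insr ranged from -0.14 to 0.063, Irs1 from -0.20 to 0.021 and Igfbp1 from -0.26 to 1.09 without 1 mouse. For HF against chow in Ctrl, Irs2 was -0.023 with the block, Akt2 0.084 with library totals, and Igfbp1 0.26 against the whole-body Ctrl and -1.29 to 0.18 without 1 mouse. In Maf1hep-/- mice library totals gave 0.015 for Akt2 and 0.18 for Irs2, and without 1 mouse Irs2 ranged from -0.46 to 0.12, Pik3r1 from -0.016 to 0.19, Igfbp1 from -0.45 to 0.996, Pck1 from -0.070 to 0.74 and G6pc from -0.12 to 0.47. In the interaction with diet Akt2 was -0.023 with the block, -0.069 with library totals and -0.022 to 0.044 without 1 mouse, Pik3r1 ranged from -0.14 to 0.063 and Pck1 from -0.84 to 0.035. In the interaction with line Pik3r1 ranged from -0.057 to 0.14, Igfbp1 from -1.45 to 0.092 and Pck1 from -0.70 to 0.19, and between Ctrl groups Insr was -0.017 with library totals and -0.0013 to 0.081 without 1 mouse. The cause of each change was not tested. Of 80 results refitted without each mouse, 34 changed a call or sign in at least 1 refit. With RLE scaling 7 pairs passed, and without the 2 farthest mice 5 of the 7 passed, along with Irs2 and G6pc (adjusted p = 0.0361).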
